A study of Homo sapiens with 24 samples.

Results

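SUM149PT, a human cell line from an inflammatory breast cancer, was treated with 10 nM 17β-estradiol for 48 h and compared with the same cells in vehicle. The comparison used 6 of the 24 arrays of the series, 3 with estradiol and 3 with vehicle, taken by the titles of the samples. The study exposed 2 inflammatory breast cancer lines, SUM149PT and SUM190PT, to estradiol, to CG-1521 (named as a histone deacetylase inhibitor by the series title), to both together or to vehicle, in 8 groups of 3 arrays. The design text of the series states that the experiment was done 3 times independently, which gave the 3 arrays. RNA was hybridised to Affymetrix Human Gene 1.0 ST arrays, and the deposited values are log2 expression after RMA, a routine that corrects the background, equalises the arrays and summarises the probes of each probe set. With 1 probe set per gene, 18417 genes were compared.

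The estradiol and vehicle groups shared line, medium and schedule. The labels give SUM149PT as ER(-) and as mutant for p53 (M237I), and all of its groups grew in Ham's F-12 medium with 5% fetal bovine serum, insulin and hydrocortisone. The serum is not described as stripped of steroids, so both groups had hydrocortisone and whatever steroids the serum held. Cells were left to attach for 48 h, after which the medium was exchanged for fresh medium with 10 nM estradiol or with the ethanol and DMSO of the vehicle. The line also received 7.5 µM CG-1521 with and without 10 nM estradiol, which gave an estradiol comparison on arrays of its own. SUM190PT, labelled ER(-) with mutant p53 (Q317X), was treated in serum-free medium with 10 nM estradiol or vehicle, so line and medium changed together. Each group is a single established line, which stands for 1 tumour.

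Estradiol acts through the nuclear receptors ERα (ESR1) and ERβ (ESR2), which travel with heat-shock chaperones until the hormone binds, then dimerise on DNA at estrogen response elements or tether to factors such as AP-1. Coactivators of the p160 family and histone acetyltransferases are then recruited to induced genes and corepressors to repressed ones, while pioneer factors such as FOXA1 and GATA3 open the chromatin in luminal breast cells. A membrane receptor, GPER1, and membrane pools of the nuclear receptors can also signal through kinases to early genes such as FOS and EGR1. In receptor-positive breast cancer cells the hormone drives TFF1, GREB1, PGR and cell-cycle genes.

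The labelled line was checked against markers of the breast epithelium. In vehicle, SUM149PT set against SUM190PT had 6 of 7 measured basal markers higher and 0 lower (median log2 difference 2.84), and 10 of 12 luminal markers lower and 0 higher (median −2.02), at an adjusted p under 0.05 with limma over all 24 arrays. Over all genes 46.7% differed by the same rule, 24.5% higher and 22.1% lower. Markers of other cells that a culture could hold had medians near 0 between the lines, at 0.02 for 10 fibroblast markers (2 higher), 0.05 for 10 leukocyte markers (2 higher) and 0.04 for 9 endothelial markers (1 higher, 1 lower). Of these markers FAP, a surface protease of fibroblasts, had 8.14, 8.29 and 8.16 with estradiol and 8.03, 8.13 and 8.11 in vehicle, and was 4.63 above SUM190PT in vehicle. Arrays of a group correlated across genes at 0.995 to 0.996, and arrays of different groups at 0.994 to 0.996. Array medians over genes lay between 6.10 and 6.13.

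No gene passed the test between estradiol and vehicle. Of 18417 genes 0 (0%) had a Benjamini-Hochberg adjusted p under 0.05 with limma, and the smallest adjusted p was 0.863. At an unadjusted p under 0.05 there were 845 genes (4.59%), of which 361 (1.96%) were above and 484 (2.63%) below vehicle. The 3 estradiol arrays all lay above the 3 vehicle arrays for 836 genes (4.54%) and all below for 1043 (5.66%), which made 1879 genes (10.2%) without overlap. Of the log2 differences 8457 were positive and 9960 negative, with a median of −0.01. They had an SD of 0.11 over genes, against a median standard error of 0.10 for a single gene. The estimate was past 1.5-fold for 10 genes (0.0543%) and past 2-fold for 0 (0%). Leaving out the first vehicle array gave 1 called gene, MTND2P28, named here after its values were seen. It is a nuclear pseudogene of the mitochondrial gene ND2, and how far its probes read both was not tested. MTND2P28 had 10.98, 10.87 and 10.86 with estradiol and 10.92, 9.24 and 9.58 in vehicle, a log2 difference of 0.99 (95% interval 0.41 to 1.58, adjusted p = 0.953 with limma) that became 1.50 without that array (adjusted p = 1.75e-05, against up to 1 in other alternatives). The first vehicle array lay among the estradiol arrays for this gene, and the other two vehicle arrays lay more than a log2 unit below them.

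**Figure D1:**
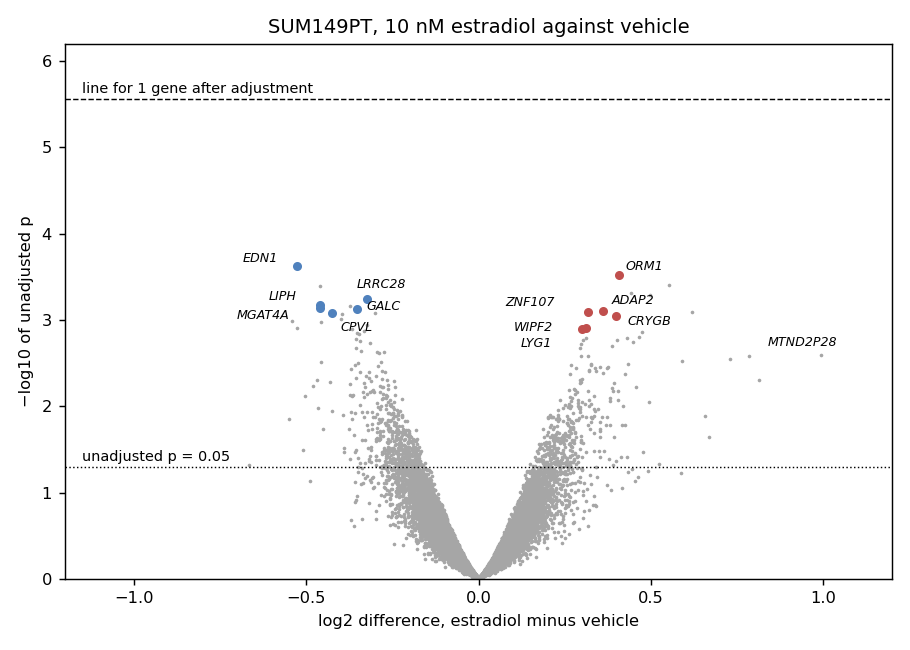
Log2 difference, estradiol minus vehicle, on the x axis against −log10 of the unadjusted p on the y axis for 18417 genes in SUM149PT (3 arrays per group), with the 12 leading genes in colour. The dotted line marks an unadjusted p of 0.05 and the dashed line the p that a single gene would need to pass the adjustment, which 0 genes reached.

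The smallest effect this design could detect was taken from the standard error of each gene. The fit used the 12 arrays of the line, with 8 residual and 7.03 prior degrees of freedom. To pass an unadjusted p of 0.05 with 80% power, the median gene needed a log2 change of 0.29, or 1.22-fold, and the genes between the 5th and 95th percentiles needed 1.17- to 1.35-fold. To pass the adjustment as the only called gene, a gene needed a p of 2.71e-06. With 80% power this took a log2 change of 0.82 or 1.77-fold at the median (1.56- to 2.37-fold over the same percentiles). If 100 genes had been called together, the p needed would have been 0.000271 and the median gene would have needed 1.47-fold (1.35- to 1.79-fold). A 2-fold change of a single gene would thus have been detectable with that power for 80.4% of genes, and a 1.5-fold change for 0.369%. At the threshold that holds with 100 genes called, a 1.5-fold change would have been detectable for 60.2% and a 2-fold change for 98.5%.

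The 95% intervals bound the differences from the other side. They lay within 1.5-fold either way for 18138 genes (98.5%) and within 2-fold for 18407 (99.9%). Over the 325 measured members of 18 lists on estrogen signalling, its targets and marker genes, 319 intervals lay within 1.5-fold and 325 within 2-fold. Of these members 14 had an unadjusted p under 0.05, beside 4.59% of all genes, and 0 were called.

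**Figure D2:**
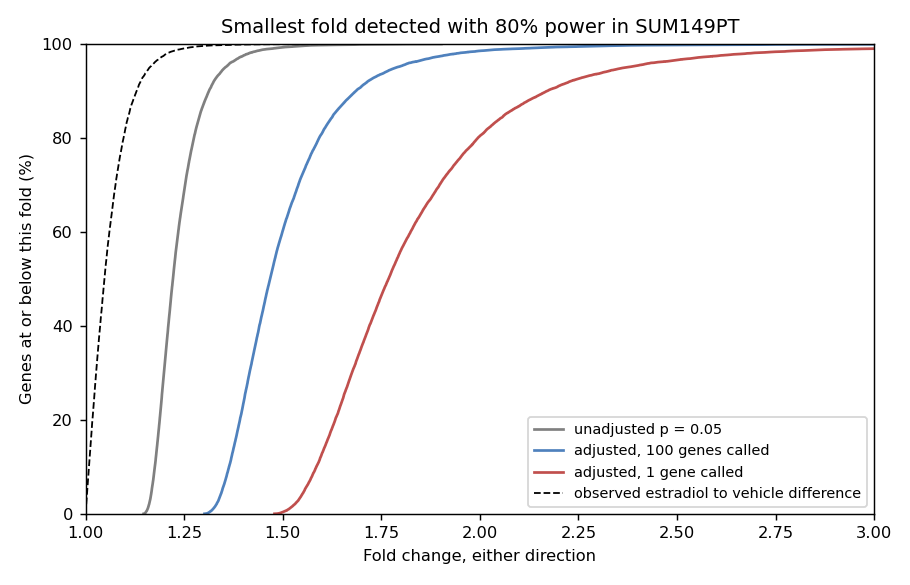
Share of the 18417 genes (y axis, %) whose smallest detectable fold change in SUM149PT with 80% power is at or below the value on the x axis, for 3 thresholds, with the observed fold difference between estradiol and vehicle as a dashed curve. The observed curve lies left of all thresholds, whose medians are 1.22-fold, 1.47-fold and 1.77-fold.

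The receptor genes came first among the members. ESR1, which encodes ERα, had 4.79, 4.73 and 5.06 with estradiol and 4.91, 4.61 and 4.75 in vehicle. The arrays overlapped, and the log2 difference of 0.10 had a 95% interval of −0.10 to 0.31, which is 0.933- to 1.24-fold. ESR2, the gene of ERβ, had 3.66, 3.46 and 3.70 with estradiol and 3.78, 3.75 and 3.77 in vehicle. All estradiol arrays of ESR2 lay below all vehicle arrays, at a log2 difference of −0.16 (−0.33 to 0.01). GPER1, the membrane estrogen receptor, had 5.91, 5.59 and 5.74 with estradiol and 5.50, 5.50 and 5.73 in vehicle, a difference of 0.17 (−0.06 to 0.40) with overlapping arrays. With 80% power, a single called gene would have needed 1.76-fold for ESR1, 1.62-fold for ESR2 and 1.91-fold for GPER1.

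RMA values carry no detection call, and levels of different probe sets cannot be ranked against each other. For orientation, the lower quartile of all gene values was 4.53 to 4.59 on these arrays. Whether transcript was present behind such dim values was not tested. Each array measured the RNA of many cells, so a smaller number of expressing cells and less RNA per cell cannot be told apart.

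The receptor genes of SUM149PT did not differ past the threshold from those of SUM190PT, which the labels also give as ER(-). In vehicle, ESR1 averaged 4.76 ± 0.15 in SUM149PT and 4.70 ± 0.152 in SUM190PT (SD, n = 3 each). The log2 difference between lines was 0.06 (SE 0.119, adjusted p = 0.741 with limma) for ESR1. It was 0.06 for ESR2 (adjusted p = 0.651) and 0.04 for GPER1 (adjusted p = 0.789). These p miss the threshold, which does not show that the levels are equal.

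Relatives of the estrogen receptor and other steroid receptors gave similar values. ESRRA, an orphan relative of ERα that regulates mitochondrial genes, had 8.01, 7.88 and 7.95 with estradiol and 7.99, 8.04 and 8.04 in vehicle (−0.08, interval −0.29 to 0.13). ESRRB and ESRRG, its paralogues, differed by 0.16 and 0.04. PGR, the progesterone receptor and a classical ERα target, had 3.66, 3.70 and 3.48 with estradiol and 3.74, 3.62 and 3.67 in vehicle, a difference of −0.06 (−0.24 to 0.12). The arrays overlapped for all of these genes. NR3C1, the glucocorticoid receptor, had 8.25, 8.26 and 8.38 with estradiol and 8.34, 8.37 and 8.25 in vehicle (−0.02, interval −0.20 to 0.15). Between lines in vehicle, NR3C1 was 0.75 higher in SUM149PT (adjusted p = 4.58e-07) and NR3C2, the mineralocorticoid receptor, 1.32 lower (log2 difference −1.32, adjusted p = 2.14e-08), both with limma.

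**Figure D3:**
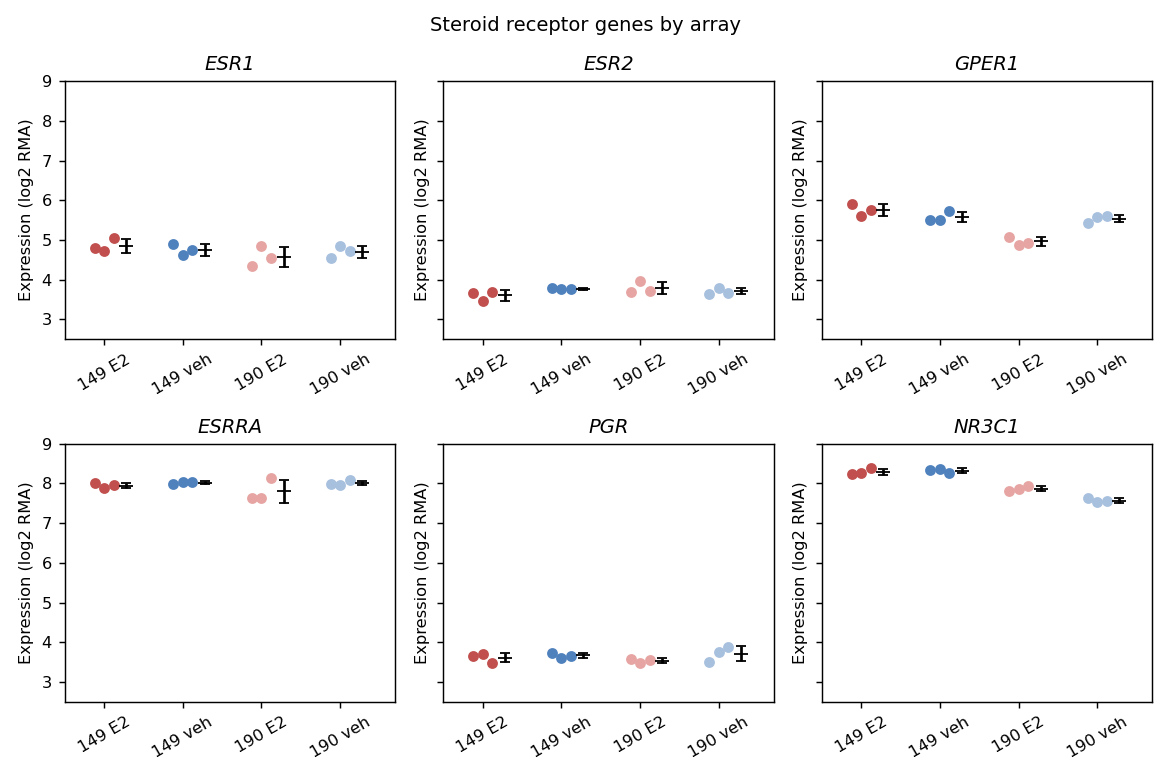
Log2 RMA expression of 6 receptor genes on each array (y axis) by group (x axis, estradiol left of vehicle, SUM149PT in full and SUM190PT in pale colours), with mean and SD of 3 arrays. For ESR1 the SUM149PT arrays lie between 4.61 and 5.06, and only NR3C1 among the 6 was called between the lines in vehicle.

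Coactivators make the receptor productive by acetylating or remodelling chromatin and by contacting the polymerase machinery. Of 38 measured coactivator genes 0 passed, 0 had an unadjusted p under 0.05, and their median log2 difference was −0.03, beside −0.01 over all genes. NCOA1, the first p160 coactivator, had 5.74, 5.62 and 6.00 with estradiol and 5.78, 5.99 and 5.88 in vehicle (−0.10, interval −0.35 to 0.16). NCOA2, another p160 member, had 6.02, 6.37 and 6.43 with estradiol and 6.22, 6.45 and 6.36 in vehicle (−0.07, −0.28 to 0.14). Both sets of arrays overlapped. EP300 and CREBBP, the paired acetyltransferases, differed by −0.06 (−0.32 to 0.21) and −0.04 (−0.27 to 0.18), and MED1, the Mediator subunit that binds liganded receptors, by −0.05 (−0.24 to 0.14). NCOA7, an estrogen receptor associated coactivator, had the smallest p of the list. It had 7.02, 7.45 and 7.28 with estradiol and 7.46, 7.35 and 7.46 in vehicle (−0.17, −0.38 to 0.03, unadjusted p = 0.0938). NCOA3, the remaining p160 gene, was not analysed here.

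The coactivator genes differed between lines. In vehicle 15 of 38 were higher and 21 lower in SUM149PT, beside 24.5% higher and 22.1% lower of all genes. The median log2 difference was −0.39, beside −0.02 over all genes. CREBBP averaged 7.56 ± 0.20 in SUM149PT and 9.36 ± 0.0629 in SUM190PT (SD, n = 3 each), a difference of −1.81 (adjusted p = 9.61e-13 with limma). KAT2B, another acetyltransferase of receptor complexes, was at −2.23, NCOA2 at −1.42 and EP300 at −0.84. PRMT1, an arginine methyltransferase of coactivator complexes, stood at 1.45 in the other direction.

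Corepressors bind unliganded or antagonist-bound receptors or compete for their surface. Of 31 measured corepressor genes 0 passed and the median difference was 0.01. An unadjusted p under 0.05 was found for 1 (NR2F1), beside 4.59% of all genes. NR2F1, an orphan nuclear receptor also known as COUP-TFI, had 6.23, 6.24 and 6.24 with estradiol and 5.94, 5.96 and 5.99 in vehicle. The arrays of NR2F1 did not overlap, and the difference was 0.28 (0.09 to 0.46, unadjusted p = 0.0063, adjusted p = 0.998 with limma). In CG-1521 the addition of estradiol gave 0.07 for NR2F1 (adjusted p = 0.937). NRIP1, a ligand-dependent corepressor and itself an estrogen target, had 7.49, 7.80 and 7.86 with estradiol and 7.70, 7.98 and 7.85 in vehicle (−0.13, −0.35 to 0.09). Estradiol arrays all lay above vehicle arrays for 3 corepressor genes, NR2F1, GPS2 and ZNF366, and below for 0, beside 4.54% above and 5.66% below of all genes.

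Pioneer and luminal factors set which enhancers the receptor can reach. The list of these factors also holds luminal keratins such as KRT18, which are structural proteins. Of its 15 measured genes 0 passed, and 1 above and 1 below vehicle had an unadjusted p under 0.05. Over all genes 1.96% were above and 2.63% below at that p. FOXA1 had 6.68, 6.81 and 6.80 with estradiol and 6.87, 6.77 and 6.76 in vehicle (−0.04, −0.21 to 0.13). GATA3 had 7.45, 7.31 and 7.77 with estradiol and 7.51, 7.34 and 7.43 in vehicle (0.08, −0.20 to 0.37). The arrays of both genes overlapped, as did those of TFAP2C, a luminal activator (0.00, −0.20 to 0.19), and of XBP1, a factor of the unfolded protein response that ERα induces (−0.07, −0.25 to 0.11). KRT18, a keratin of simple epithelia, had 12.03, 12.03 and 12.15 with estradiol and 11.84, 11.80 and 11.95 in vehicle (0.21, 0.04 to 0.38, unadjusted p = 0.0164). EHF, an epithelial ETS factor, had 6.25, 6.24 and 6.06 with estradiol and 6.50, 6.39 and 6.30 in vehicle (−0.22, −0.39 to −0.04, unadjusted p = 0.0193). The arrays of KRT18 and EHF did not overlap, while those of the other measured genes of the list did. Over all genes 10.2% were without overlap.

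Against SUM190PT in vehicle, 12 of these 15 genes were lower in SUM149PT and 0 higher, with a median of −1.12, beside 22.1% lower and 24.5% higher of all genes. FOXA1 averaged 6.80 ± 0.060 in SUM149PT and 9.69 ± 0.00424 in SUM190PT (SD, n = 3 each), a log2 difference of −2.88 (adjusted p = 7.46e-17 with limma). GATA3 was at −1.79, XBP1 at −2.93 and SPDEF, a prostate and breast luminal ETS factor, at −3.76.

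Chaperones of the HSP90 cycle hold steroid receptors ready to bind hormone. Of 14 measured, 0 passed and 0 had an unadjusted p under 0.05 (median 0.01). HSP90AB1, the constitutive HSP90 gene, had 12.55, 12.55 and 12.57 with estradiol and 12.60, 12.53 and 12.59 in vehicle (−0.02, −0.16 to 0.13). STIP1, which joins HSP70 to HSP90, differed by 0.12 (−0.05 to 0.28), and FKBP4, an immunophilin that estrogen induces in receptor-positive cells, by 0.10 (−0.07 to 0.27).

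The genes that estradiol induces in receptor-positive breast cells were read next. Of 60 measured, 0 passed, 0 above and 1 below vehicle had an unadjusted p under 0.05, and 17 differences were positive and 43 negative, with a median of −0.03. Over all genes 8457 were positive and 9960 negative, and 1.96% were above and 2.63% below at that p. TFF1, the secreted trefoil peptide used as a marker of ERα activity, had 5.59, 5.66 and 5.41 with estradiol and 5.26, 5.50 and 5.53 in vehicle (0.13, −0.11 to 0.37). GREB1, an ERα cofactor and early target, had 3.92, 3.88 and 3.87 with estradiol and 3.99, 3.91 and 4.18 in vehicle (−0.14, −0.31 to 0.04). CTSD, the lysosomal protease cathepsin D, had 10.07, 10.05 and 10.19 with estradiol and 10.10, 10.18 and 10.13 in vehicle (−0.03, −0.20 to 0.14). The arrays of all of these targets overlapped. As folds, the upper ends of the intervals were 1.29 for TFF1, 1.03 for GREB1 and 1.10 for CTSD.

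Other induced genes with the smallest p gave values in both directions. RAB31, a vesicle-traffic GTPase, had 8.97, 8.94 and 9.06 with estradiol and 9.16, 9.28 and 9.06 in vehicle (−0.18, −0.34 to −0.01, unadjusted p = 0.0371). JAK2, the cytokine receptor kinase, had 4.67, 4.68 and 4.52 with estradiol and 4.74, 4.79 and 4.84 in vehicle (−0.17, −0.35 to 0.02). IL17RB, an interleukin receptor chain, had the highest difference of the list, 0.22 (−0.03 to 0.46). Groups did not overlap for 3 of the 60 genes, RERG, MREG and JAK2, all with the estradiol arrays below, beside 10.2% of all genes. STC2, the secreted stanniocalcin, differed by −0.02, CXCL12, a chemokine, by −0.02, CA12, a membrane carbonic anhydrase, by −0.11 and SIAH2, a ubiquitin ligase, by 0.00. The widest interval of the list was bounded by 0.730- and 1.38-fold. PDZK1 lay only on a probe set shared by several genes and was not analysed here.

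Promoter windows of the genes were searched for the palindrome that estrogen receptors bind in full, GGTCANNNTGACC, and for its single arm, GGTCA, on both strands. The windows are RefSeq's, on GRCh38.p14, and run from 250 bases before to 50 bases after the start of transcription. The full palindrome was in 20 of 35116 windows (0.057%) and the arm in 13125 (37.4%), each full palindrome holding an arm on either strand. Of the 60 measured induced genes 44 had a window. Their 77 windows held 0 full palindromes, and 21 (27.3%) held an arm. A missing match says only that the letters are not in this window, since much of ERα binding lies at distant enhancers.

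The 5 measured genes with a full palindrome are shown because these are the sequences nearest to the textbook element, with the palindrome in capitals, on the strand of the gene.
SLC35B2 (chr6:44257749-44257777, minus strand): atggcaatGGTCACCATGACCtctgggac
EVX2 (chr2:176083932-176083960, minus strand): gatgtatgGGTCATTTTGACCagtcattc
PRR16 (chr5:120531414-120531442, plus strand): cagccaggGGTCATTGTGACCtaaatgca
USHBP1 (chr19:17264722-17264750, minus strand): caggcagtGGTCAGAGTGACCccaacaga
ZNF669 (chr1:247104510-247104538, minus strand): ccaaaagcGGTCATTCTGACCtcatccag

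None of these 5 passed in limma, and 1 had an unadjusted p under 0.05, beside 4.59% of all genes. The arrays of 2 of the 5 did not overlap, beside 10.2% of all genes. SLC35B2, a Golgi transporter of the sulfate donor PAPS, had 8.47, 8.43 and 8.38 with estradiol and 8.59, 8.60 and 8.71 in vehicle (−0.21, −0.37 to −0.05, unadjusted p = 0.0147). Its estradiol arrays all lay below its vehicle arrays. EVX2, a homeobox gene, had 6.63, 6.60 and 6.76 with estradiol and 6.60, 6.51 and 6.60 in vehicle, again without overlap but in the other direction (0.10, −0.10 to 0.30). The arrays of PRR16, USHBP1 and ZNF669 overlapped, and the median over the 5 was −0.01.

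The window of CTSD is shown as that of a textbook target measured here, with the arms, on either strand, in capitals at positions −195, −43 and −18 from the start. EDN1, described next, is shown as the leading lower gene. It has 3 windows, and the one shown, the last along the chromosome, held 0 arms. Over the 12 leading genes 8 of 17 windows (47.1%) held an arm, beside 35.3% of the windows of genes tested.
CTSD (chr11:1763878-1764177, minus strand): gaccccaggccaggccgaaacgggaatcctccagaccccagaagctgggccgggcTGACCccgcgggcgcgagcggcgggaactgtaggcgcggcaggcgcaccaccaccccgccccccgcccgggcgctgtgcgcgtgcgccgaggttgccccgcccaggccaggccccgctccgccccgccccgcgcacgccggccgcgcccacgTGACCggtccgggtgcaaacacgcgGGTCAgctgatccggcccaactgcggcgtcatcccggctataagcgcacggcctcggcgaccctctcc
EDN1 (chr6:12290111-12290410, plus strand): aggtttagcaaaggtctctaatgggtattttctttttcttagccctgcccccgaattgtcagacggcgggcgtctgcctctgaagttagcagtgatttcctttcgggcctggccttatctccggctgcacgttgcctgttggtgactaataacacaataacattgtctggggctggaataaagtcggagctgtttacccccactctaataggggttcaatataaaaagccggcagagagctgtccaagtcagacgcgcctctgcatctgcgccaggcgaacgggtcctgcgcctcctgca

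EDN1, which encodes the vasoconstrictor peptide endothelin-1, had the smallest p of all genes. It had 5.28, 5.58 and 5.55 with estradiol and 5.93, 6.12 and 5.93 in vehicle. All estradiol arrays lay below all vehicle arrays, at a log2 difference of −0.53 (SE 0.110, interval −0.76 to −0.29, unadjusted p = 0.000236), and the adjusted p of 0.863 did not pass. The other lower leading genes, taken by p among genes without overlap, were LRRC28 (−0.32), LIPH, a phosphatidic acid lipase (−0.46), MGAT4A, an N-glycan branching enzyme (−0.46), GALC, the lysosomal galactosylceramidase (−0.35), and CPVL, a carboxypeptidase (−0.43). MGAT4A had 5.36, 5.32 and 5.34 with estradiol and 5.99, 5.82 and 5.60 in vehicle. CPVL had 7.01, 7.15 and 6.84 with estradiol and 7.43, 7.60 and 7.25 in vehicle. These genes were picked for their separation, so their lack of overlap is no further result.

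The leading genes with estradiol above vehicle lay between 0.30 and 0.41. ORM1, the acute-phase protein orosomucoid, had 3.55, 3.45 and 3.53 with estradiol and 3.16, 2.98 and 3.17 in vehicle (0.41, 0.22 to 0.59, unadjusted p = 0.000301). These ORM1 values are dim, below the arrays' lower quartile of 4.53 to 4.59. ADAP2, a GTPase-activating protein for ARF6, had 4.92, 4.98 and 4.98 with estradiol and 4.65, 4.58 and 4.57 in vehicle (0.36, 0.18 to 0.54). Neither passed after adjustment over all genes. ORM1 has a near-identical neighbour, ORM2, and how far its probes read both was not tested. ZNF107 (0.32), CRYGB, a lens crystallin (0.40), WIPF2, a regulator of actin assembly (0.31), and LYG1 (0.30) followed.

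**Figure D4:**
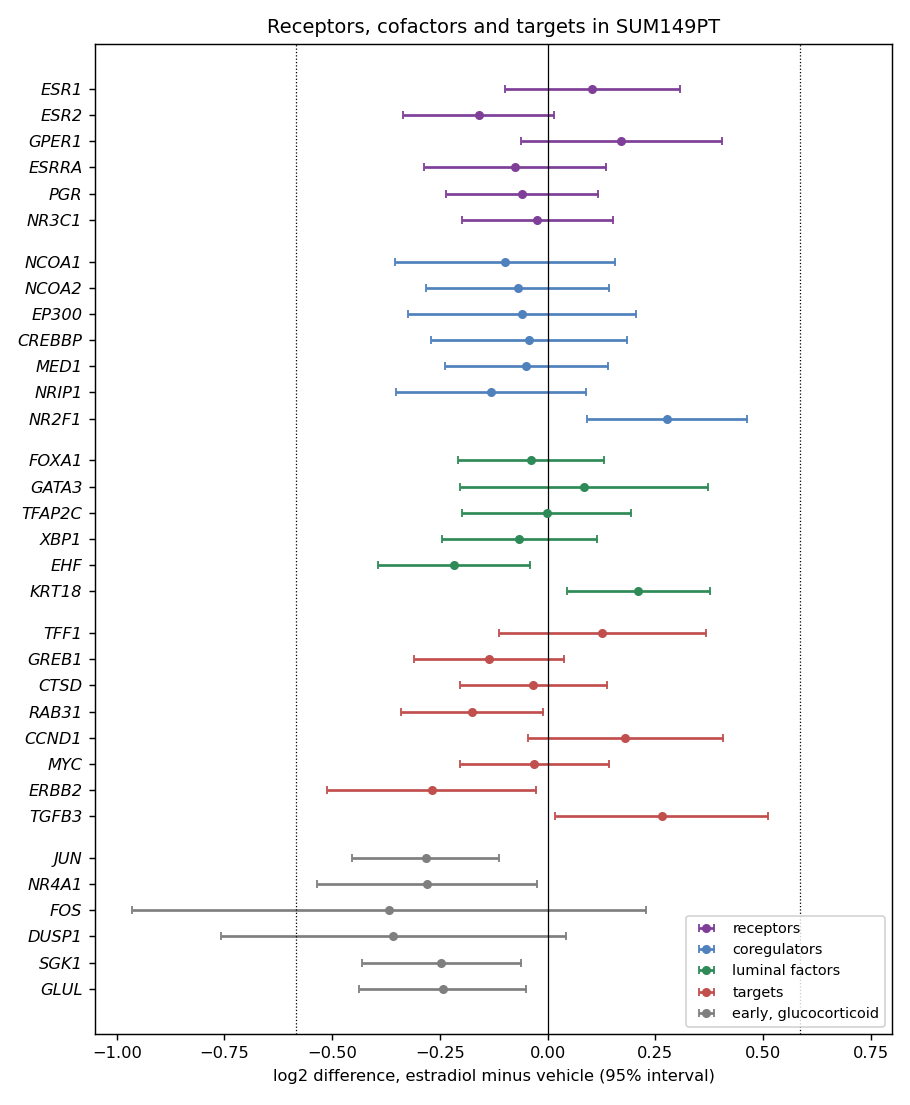
Log2 difference, estradiol minus vehicle, with 95% interval (x axis) for named genes in SUM149PT (3 arrays per group), with dotted lines at 1.5-fold. The blocks are receptors, coregulators, luminal factors with the keratin KRT18, targets, and early or glucocorticoid-responsive genes. Intervals of FOS and DUSP1 reach past 1.5-fold, those of JUN, NR4A1, SGK1, GLUL, EHF, RAB31 and ERBB2 lie below 0 and those of NR2F1, KRT18 and TGFB3 above it, none of them past the adjusted threshold.

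Genes that estradiol represses in receptor-positive cells gave 8 positive and 17 negative differences among 25 measured, with a median of −0.06. None passed, and 1 above and 1 below vehicle had an unadjusted p under 0.05. Over all 18417 genes 1.96% were above and 2.63% below at that p, and 9960 differences were negative. ERBB2, the receptor kinase HER2, had 7.01, 6.85 and 6.85 with estradiol and 7.22, 7.25 and 7.06 in vehicle (−0.27, −0.51 to −0.03, unadjusted p = 0.032). Its arrays did not overlap. Of the 25 genes 1 lay all above and 1, ERBB2, all below vehicle, beside 4.54% above and 5.66% below of all genes. TGFB3, a growth factor of the TGFβ family, had 5.21, 5.06 and 4.71 with estradiol and 4.91, 4.60 and 4.67 in vehicle (0.26, 0.02 to 0.51, unadjusted p = 0.0385), with overlap. ARRDC3, an arrestin-domain adaptor, had 8.01, 8.63 and 7.93 with estradiol and 8.41, 8.77 and 8.41 in vehicle (−0.34, −0.68 to 0.00).

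Proliferation genes are the main growth readout of estrogen in receptor-positive cells. Of 34 measured, 0 passed and 0 had an unadjusted p under 0.05, and the median difference was 0.01 with 19 positive and 15 negative. CCND1, which encodes cyclin D1, had 9.24, 9.16 and 9.39 with estradiol and 9.02, 9.09 and 9.15 in vehicle (0.18, −0.05 to 0.41). Its arrays did not overlap, which held for 4 of the 34 genes (CCND1, RRM2 and AURKB with estradiol above, BLM below), beside 10.2% of all genes. MYC, the growth transcription factor, had 10.26, 10.32 and 10.26 with estradiol and 10.34, 10.22 and 10.38 in vehicle (−0.03, −0.20 to 0.14). MKI67, the Ki-67 antigen of cycling cells, had 9.26, 9.46 and 9.69 with estradiol and 9.36, 9.70 and 9.67 in vehicle (−0.10, −0.36 to 0.15). AURKB, the mitotic kinase Aurora B, had the smallest p of the list (0.14, −0.02 to 0.30, unadjusted p = 0.0762).

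Early genes of kinase signalling had no called member at 48 h. No earlier time was measured, so an early response was not tested. Of 28 measured 0 passed, 20 differences were negative and 8 positive, with a median of −0.09, and 1 above and 2 below vehicle had an unadjusted p under 0.05. Of all 18417 genes 9960 differences were negative, and 1.96% were above and 2.63% below at that p. JUN, a subunit of AP-1, had 8.30, 8.34 and 8.27 with estradiol and 8.68, 8.65 and 8.43 in vehicle (−0.28, −0.45 to −0.11, unadjusted p = 0.00304). All estradiol arrays of JUN lay below all vehicle arrays. NR4A1, an orphan nuclear receptor induced by many stimuli, had 6.32, 6.27 and 6.19 with estradiol and 6.89, 6.41 and 6.32 in vehicle (−0.28, −0.54 to −0.02). SPRY4, an inhibitor of receptor kinase signalling, had 6.11, 6.13 and 6.41 with estradiol and 5.89, 5.90 and 6.13 in vehicle (0.25, 0.02 to 0.48). FOS, the partner of JUN, varied more, with 8.69, 9.90 and 9.17 with estradiol and 9.47, 9.99 and 9.40 in vehicle. The interval of FOS was −0.97 to 0.23 around −0.37, or 0.512- to 1.17-fold, and includes 0. EGR1, an early zinc-finger factor, differed by −0.30 (−0.73 to 0.14). The list's median was −0.03 without the first estradiol array.

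Glucocorticoid-responsive genes were read because both groups had hydrocortisone. Of 16 measured 0 passed, 14 differences were negative and 2 positive with a median of −0.09, and 0 above and 3 below vehicle had an unadjusted p under 0.05, beside 9960 negative differences among all 18417 genes, 1.96% above and 2.63% below at that p. SGK1, a kinase that controls ion channels, had 6.06, 6.14 and 6.02 with estradiol and 6.36, 6.21 and 6.40 in vehicle (−0.25, −0.43 to −0.06, unadjusted p = 0.0119). GLUL, glutamine synthetase, had 7.84, 7.61 and 7.80 with estradiol and 8.05, 8.07 and 7.85 in vehicle (−0.24, −0.44 to −0.05, unadjusted p = 0.0165). Neither gene's arrays overlapped. KLF9, a glucocorticoid-induced zinc-finger factor, differed by −0.24, DUSP1, a phosphatase that switches off MAP kinases, by −0.36 (−0.76 to 0.04), and PER1, a clock gene, by 0.00 (−0.25 to 0.26).

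Enzymes and carriers that make, take up or inactivate estrogens had 0 of 29 genes called and 0 at an unadjusted p under 0.05, with a median of 0.00. CYP1B1, which hydroxylates estradiol, had 10.78, 10.94 and 10.72 with estradiol and 10.78, 10.97 and 10.74 in vehicle (−0.02, −0.22 to 0.17). HSD17B4, which oxidises estradiol to estrone, differed by −0.10 (−0.27 to 0.08) and HSD17B2, with the same activity, by 0.17 (−0.04 to 0.37). CYP19A1, aromatase, differed by 0.09 (−0.19 to 0.37).

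Markers of other cells and of the epithelium gave no called gene. Among leukocyte markers 0 of 10 were above and 2 below vehicle at an unadjusted p under 0.05, beside 1.96% and 2.63% of all genes. CD3D, a chain of the T cell receptor complex, had 4.23, 4.24 and 4.04 with estradiol and 4.36, 4.45 and 4.65 in vehicle (−0.32), while CD3E of the same complex differed by −0.11 and PTPRC, the pan-leukocyte phosphatase, by −0.06. The median was −0.08 over the leukocyte, −0.07 over 10 fibroblast and −0.06 over 9 endothelial markers. Without the dimmest 50% of genes it was 0.03 over the leukocyte and 0.06 over the fibroblast markers that remained. How many remained is not given here. DCN, the matrix proteoglycan decorin, had 3.80, 3.74 and 3.83 with estradiol and 4.48, 4.39 and 3.50 in vehicle, so its lowest value was a vehicle array. Of 7 basal markers the median was −0.02, and of 12 luminal markers 0.02.

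The line's arrays with CG-1521 gave a second estradiol comparison that shares no array with the first. The 3 arrays with 10 nM estradiol and 7.5 µM CG-1521 were set against 3 with CG-1521 alone. Again 0 of 18417 genes (0%) passed with limma (smallest adjusted p = 0.14), and 1156 (6.28%) had an unadjusted p under 0.05, 697 (3.78%) above and 459 (2.49%) below CG-1521 alone. EDN1 had 4.76, 5.19 and 5.06 with estradiol and CG-1521, against 5.56, 5.58 and 5.64 with CG-1521 alone. The estradiol arrays again lay below, by −0.59 (SE 0.110, adjusted p = 0.248). ESR1 differed by −0.10, ESR2 by −0.03, GPER1 by 0.10, PGR by −0.05, TFF1 by 0.25 and GREB1 by 0.02. JUN differed by −0.03, SGK1 by −0.06 and GLUL by 0.05.

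The mean of both estradiol comparisons, which sets 6 arrays against 6, also had 0 of 18417 genes (0%) past the threshold, and 975 (5.29%) at an unadjusted p under 0.05, 534 (2.9%) above and 441 (2.39%) below. EDN1 came nearest, at −0.56 (SE 0.0778, adjusted p = 0.0597 with limma), with all 6 estradiol arrays below their own controls. It had been picked for its separation between estradiol and vehicle, and the mean uses those arrays again. Only its values with CG-1521 are free of that choice. The size of the EDN1 difference moved little, from −0.60 to −0.50 as single arrays were left out. Its call did depend on settings. EDN1 passed with the replicate number as a block (adjusted p = 0.0159 with limma) and after centring each array (0.0492). It also passed without the second estradiol array (0.0465) or without the second combination array (0.0308). It passed in no other alternative, such as quantile normalization (0.0645) or leaving out any other single array. The range over all alternatives was 0.0159 to 0.327. ATP23, an assembly factor of mitochondrial ATP synthase, was at −0.43, ZNF674 at −0.34 and IMMP1L, a subunit of the mitochondrial inner membrane peptidase, at −0.41, all named after their values were seen. The difference between both estradiol comparisons, tested as an interaction, had 0 genes called (0%), 1046 (5.68%) at an unadjusted p under 0.05 (583 or 3.17% positive, 463 or 2.51% negative) and a smallest adjusted p of 0.762. It was −0.06 for EDN1.

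**Figure D5:**
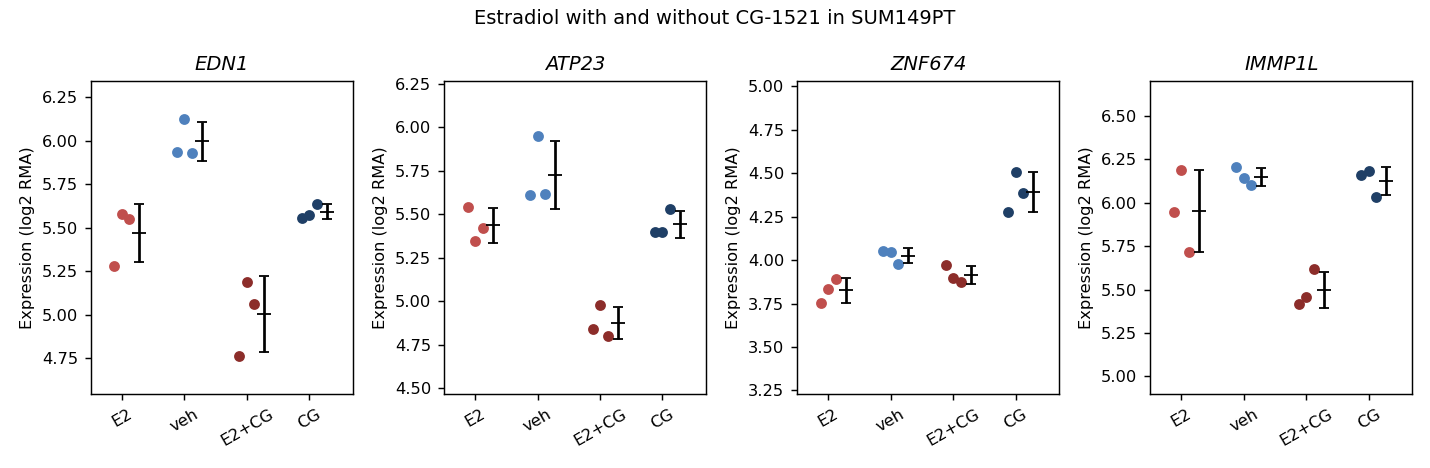
Log2 RMA expression (y axis) of EDN1, ATP23, ZNF674 and IMMP1L on the SUM149PT arrays with estradiol (E2), vehicle, estradiol and CG-1521 (E2+CG) and CG-1521 (CG), with mean and SD of 3 arrays. The EDN1 arrays with estradiol lie below their controls in both pairs, while those of IMMP1L overlap in the pair without CG-1521.

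The estradiol difference of SUM149PT was last tested against that of SUM190PT over all 24 arrays. In SUM190PT the third array of each group was less like its fellows. Across genes it correlated with them at 0.984 and 0.985 in estradiol and at 0.981 and 0.984 in vehicle, while the first array correlated with the second at 0.996 and 0.991. The median SD of a gene within groups, as moderated by limma over genes, was 0.118 in SUM149PT and 0.170 in SUM190PT. The fit over all 24 arrays shared its estimate of spread between the lines, although these SDs differed, and the tests of the difference rest on it. The difference between lines passed for 321 of 18417 genes (1.74%) with limma, 169 (0.918%) positive and 152 (0.825%) negative. It passed for 2 (0.0109%) without the third SUM190PT arrays. It passed for 0 to 2239 genes as single arrays were left out, with 0 without the first or the third estradiol array of SUM149PT or without the second vehicle or the second estradiol array of SUM190PT, and 2239 without the first vehicle array of SUM190PT. GPER1 had 5.91, 5.59 and 5.74 with estradiol and 5.50, 5.50 and 5.73 in vehicle in SUM149PT. In SUM190PT it had 5.08, 4.88 and 4.93 with estradiol and 5.43, 5.57 and 5.60 in vehicle, a difference of −0.57. The difference between lines was 0.74 for GPER1 (adjusted p = 0.0358) and 0.69 without the third arrays (adjusted p = 0.0676). ESR1 differed between lines by 0.22 (adjusted p = 0.455) and ESR2 by −0.24 (adjusted p = 0.286). For EDN1 it was −0.80 (adjusted p = 0.114), and for TFF1 0.30 (adjusted p = 0.448). Within SUM190PT estradiol against vehicle, 1 gene (0.00543%) passed in the line's own 12 arrays, 0 (0%) without the third arrays, and 2990 (16.2%) in the fit over all 24 arrays, which shares its estimate of spread between lines, 1359 (7.38%) above and 1631 (8.86%) below vehicle. The gene called in the line's own arrays, KRCC1, had 5.63, 5.88 and 5.60 with estradiol and 6.19, 5.68 and 5.69 in vehicle in SUM149PT (−0.15, −0.42 to 0.12).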

How the data were processed

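The deposited values are log2 expression on 24 arrays. The authors used Affymetrix Expression Console and RMA, per the submitters' processing notes, which give no version. A joint or separate normalization of the lines is not given in the sources used here. All 24 value columns were used (0 unused, 0 values missing). Of 33297 probe sets, GEO's platform annotation gave 19460 a single gene, 1754 several and 12083 none. The brightest probe set stood for each of 769 genes with several, leaving 18417 genes, with no filter on intensity.

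Groups came from sample titles. Contrasts were fitted with limma 3.58.1 in R 4.3.3 (lmFit and eBayes, two-sided, Benjamini-Hochberg over all genes, threshold 0.05) over the 12 SUM149PT arrays, or over 24 for differences between lines. Exact permutation of 3 against 3 arrays cannot go below p = 0.10 and was not used. Detectable effects came from the standard errors and the noncentral t distribution. The fit was tested on simulated data. Python 3.11.15, pandas 2.3.3, numpy 2.4.6 and matplotlib 3.10.9 handled sequences and figures.

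The comparison, the 18 gene lists and the tests were chosen with earlier results of these data known. Named were receptors, cofactors and standard targets, the 6 genes of smallest p without overlap in each direction (uncharacterized loci and small RNAs skipped), and the 2 of smallest p per list; others served as textbook examples of their list or are said to be named after their values were seen. Of the 356 listed genes 325 were measured; the others were not analysed here. Alternatives were other array sets, normalizations, filters, probe set rules and priors, a replicate block and leaving out each array. The number of arrays limits the precision.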

Additional observations from a re-analysis of the deposited data

Results flagged for a closer look

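The estradiol difference passed a test of the difference between SUM149PT and SUM190PT for 321 genes (1.74%). The test shared its estimate of spread between the lines, whose median SDs were 0.118 in SUM149PT and 0.170 in SUM190PT. The count was 425 with the replicate number as a block, and 2 without the third array of SUM190PT in vehicle and in estradiol, a setting chosen after seeing the data. As single arrays were left out it was 0 to 2239, with the lowest counts without the first or the third estradiol array of SUM149PT or without the second vehicle or second estradiol array of SUM190PT, and the highest without the first vehicle array of SUM190PT. Line, medium and serum changed together and cannot be told apart.

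Among named genes, GPER1 differed by 0.7432 (adjusted p = 0.0358 with limma, 0.0676 without the third SUM190PT arrays). ADAP2 differed by 0.7354 (adjusted p = 0.0425, 0.0766 without them). MGAT4A differed by −0.8108 (adjusted p = 0.043, 0.0822 without them), and NR2F1 by 0.5399 (adjusted p = 0.0478, 0.0858 without them). All 4 values are SUM149PT minus SUM190PT on the log2 scale. ADAP2 and MGAT4A were picked by p over all genes, and NR2F1 by p within its list. Those p came from SUM149PT arrays that also enter this difference, so the passing of ADAP2, MGAT4A and NR2F1 is no independent result. GPER1 kept a value of 0.664 to 0.820 as single arrays were left out, with an adjusted p of 0.00526 to 0.114.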

How the results depend on the processing

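The count of 0 called genes held with the replicate block, the 6 arrays alone, all 24 arrays, quantile normalization, median centring, removal of the dimmest 50% of genes, averaging over probe sets, all 33297 probe sets and an intensity-dependent prior, and was 0 to 1 higher and 0 to 0 lower as single arrays were left out (MTND2P28 without the first vehicle array). Genes at an unadjusted p under 0.05 numbered 340 with all 24 arrays, 504 without dim genes, 1503 over all probe sets, 876 with the block and 666 to 1014 leaving out arrays. The detectable log2 change for 1 called gene was 1.02 with 6 arrays, 0.69 without dim genes, 1.10 over all probe sets and 0.936 to 0.960 leaving out arrays. Genes called on the mean of both comparisons were 1 with the block and 1 after centring (EDN1 in each), and 0 to 2 leaving out arrays. IMMP1L was also called without the second estradiol array, and MTND2P28 without the first vehicle array. The interaction gave 0 to 1 (MTND2P28 without the first vehicle array, SNORA62 without the third estradiol array) and the combination against CG-1521 0 to 0. The difference between lines gave 0 to 2239 leaving out arrays, and SUM190PT alone had 2990 genes called in the fit over 24 arrays. The causes were not tested. Same-numbered arrays deviated together at 0.23, 0.15 and 0.0542. The first and second estradiol arrays correlated best with the vehicle array of their own number, the third with the second vehicle array (0.0796). The main fit took the arrays as unpaired, and whether the numbers pair them was not settled. Between estradiol and vehicle the block called 0 genes and gave a detectable change of 0.88. On the mean of both comparisons it called EDN1 (adjusted p = 0.0159 with limma). Of 941 values for 65 named results 935 kept their sign and lack of a call, or changed sign by less than the median standard error. Another 5 changed sign by more, 1 became a call and 0 called values changed sign. Keeping the sign does not bound the size, as DCN ranged from −0.65 to −0.16. Of 251 list medians 26 moved by more than the spread of that median between vehicle arrays, none past 0.17 in size. EDN1 has no value without dim genes, and list medians were not run on unannotated probe sets. Dim genes such as ESR2 and PGR carry no detection call, which limits what their differences show.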

Other observations

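Small nucleolar RNAs, which guide the modification of ribosomal RNA, leaned above vehicle. This family was picked after its values were seen and was not tested. Of 176 SNORA and SNORD genes 37 were above and 0 below vehicle at an unadjusted p under 0.05, beside 1.96% and 2.63% of all genes. Their median log2 difference was 0.12, with 130 positive. Over the family, the median deviation from the vehicle mean was 0.18, 0.17 and 0.06 on the estradiol arrays and −0.07, 0.04 and 0.06 on the vehicle arrays, so the third estradiol array and the third vehicle array lay close together. When estradiol was added to CG-1521 the median was 0.01, with 8 above and 4 below CG-1521 alone. Olfactory receptor genes, another family of mostly dim probe sets, had a median of 0.00 over 341 genes, with 7 above and 12 below vehicle. When estradiol was added to CG-1521 their median was 0.04, with 18 above and 0 below, beside 3.78% above and 2.49% below of all genes.

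The difference furthest below vehicle over all genes was that of LIMD1-AS1, an antisense RNA, at −0.67 (unadjusted p = 0.0481). It had 3.54, 2.69 and 3.11 with estradiol and 3.77, 4.39 and 3.18 in vehicle, with overlapping arrays. All of these values are dim, below the arrays' lower quartile of 4.53 to 4.59.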
